A study of Mus musculus with 8 samples.

Results

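The mRNAs of nucleoporins, importins and exportins were followed in activated B cells that had lost the RNA helicase gene Eif4a1. The genes were chosen by name, as all rows whose symbol begins with Nup, Kpna, Kpnb or Ipo and a digit, or with Xpo and a digit or t, leaving out pseudogene names. This gave 41 of the 53242 genes in the tables, of which 21 are nucleoporins, 14 importins and 6 exportins. Of these, 40 passed a filter on low counts and were tested, and Kpna7, an importin alpha gene, was at 0 counts in all 8 libraries.

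Nuclear pores are large protein channels across the nuclear envelope, built from nucleoporins arranged as outer rings (the Y complex), an inner ring, a central channel lined with phenylalanine-glycine repeats, cytoplasmic filaments and a nuclear basket. Importins bind cargo in the cytoplasm and exportins bind it in the nucleus, and the small GTPase Ran sets the direction of travel. B cells that leave quiescence enlarge their nuclei and prepare for division, when the pores are taken apart and rebuilt.

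Splenic B cells of C57BL/6 mice aged 8 to 12 weeks, either Eif4a1 +/+ Cd23-cre (control) or Eif4a1 fl/fl Cd23-cre (4A1 KO), were activated for 24 h on irradiated CD40LB feeder cells with IL4 at 40 ng/ml. Both genotypes carry the Cre transgene, which is active in mature B cells, and the feeder cells were depleted before RNA was extracted. There were 4 libraries per genotype, with replicates 1 and 2 from batch A and 3 and 4 from batch B, and with males as replicates 1 and 3 and females as replicates 2 and 4. Replicate 1 of both genotypes was left out of the main comparison for low viability (n = 3 per genotype), and its values are given beside the others for the members that the results turn on. By the study's methods the replicates came from individual mice.

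The libraries held 38488341 to 43210858 counts in replicates 2 to 4, and 39890141 (control) and 31727557 (4A1 KO) in replicate 1. Eif4a1 was at 748, 939 and 881 CPM (counts scaled to library size) in controls 2 to 4 and at 556, 641 and 689 CPM in 4A1 KO 2 to 4, with 825 and 596 CPM in control 1 and 4A1 KO 1. Its 4A1 KO libraries were thus below every control library, with reads of the gene remaining in all of them. B cell markers were present in every library, although 4 of 7 such markers were called lower, beside 13.7% of all genes tested. The summed TPM of these markers (a measure also scaled by transcript length) ranged in replicates 2 to 4 from 2430 to 2646 for control libraries and from 1759 to 1979 for 4A1 KO ones. The 10 fibroblast markers chosen for the feeder cells summed to 4.24 to 18.8 TPM in controls and 6.66 to 11.4 TPM in 4A1 KO over the 8 libraries, with Postn at 0 counts in all 8, and of those tested Fn1 was called higher (0.86, edgeR adjusted p = 0.0215) and Col3a1 lower (-1.57, edgeR adjusted p = 0.0437). The 6 T cell markers summed to 1.03 to 2.65 TPM in controls and 0.78 to 1.57 TPM in 4A1 KO over the 8 libraries, with Cd3g at 0 counts in all 8 and Trac, at 0.74 to 2.49 TPM, read in all 8. Of 5 plasma cell markers 3 were lower by adjusted p and none higher, and of 4 tested myeloid markers 2 were higher and none lower. Over all genes tested, 26.7% were lower and 26.3% higher by adjusted p. In bulk RNA, fewer cells of a type and less RNA per cell cannot be told apart.

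As a group, the transport mRNAs moved by small amounts, and mostly downwards among the scaffold nucleoporins that the name rule holds. Nup43, Nup85, Nup62 and Ipo11 were called lower in 4A1 KO, where a call needs a log2 fold change beyond 0.5 in size together with an adjusted p below 0.05 (edgeR's quasi-likelihood test, Benjamini-Hochberg adjusted over 14218 genes). Nup62cl was called higher, from very few reads, and it passed the filter only through its 4A1 KO libraries. These 4 of 40 lower calls stand beside 13.7% of all genes tested, and the 1 higher call beside 11.6%. By adjusted p alone, 20 members fell and 12 rose, beside 26.7% and 26.3% of all genes, and 8 did not pass. Of all genes tested, 53.0% passed in either direction. The median log2 fold change of the members was -0.16, against 0.01 over all genes tested. Their median absolute log2 fold change was 0.25, against 0.31 over all genes tested. Of the 40 members tested, 36 moved in 1 direction in 3 of 3 pairs of same-numbered libraries (73.5% of all genes tested), and 35 in 4 of 4 when replicate 1 was added (67.1% of all genes tested). The 32 members past the adjusted p are all among the 36, which the test on these same pairs favours.

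**Figure D1:**
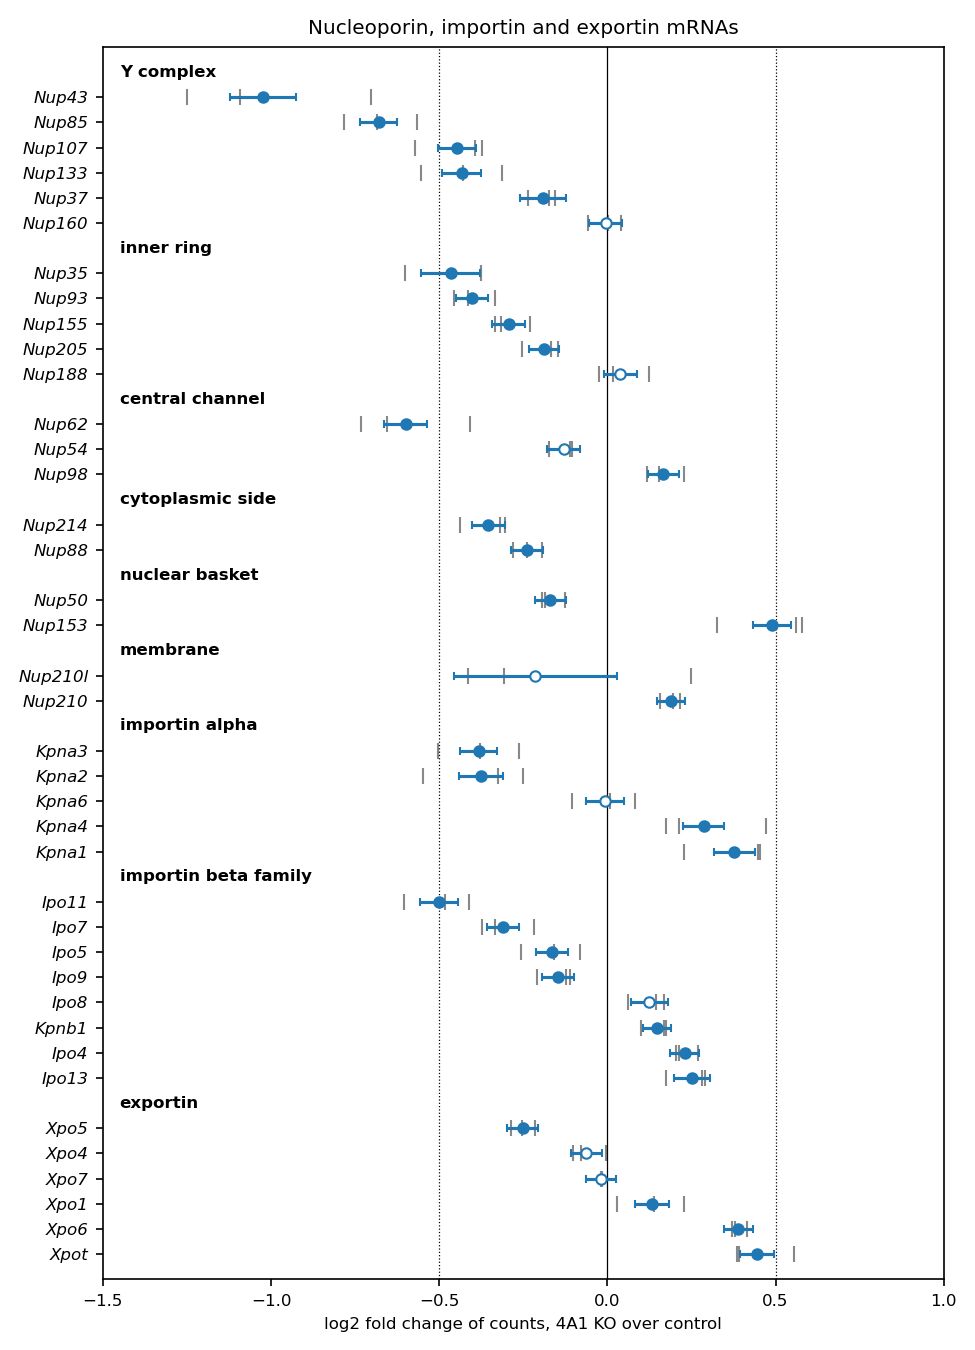
Log2 fold change of counts (x axis, 4A1 KO over control, replicates 2 to 4) for 39 tested members grouped by role, with filled points past an adjusted p of 0.05, bars for the standard error and grey ticks for the ratio in each pair of same-numbered libraries. Points of the Y complex and the inner ring lie mostly left of 0, while importins and exportins lie on both sides, and the dotted lines mark a log2 fold change of 0.5 in either direction (Nup62cl, at 1.74, is left out).

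To show the region from which the members called lower are transcribed, and that of Nup153, the largest rise among well-read members, the bases just before each annotated start are given. They were read from GRCm39 with GENCODE M39 starts, 5′ to 3′ on the gene's own strand, and capitals mark a CCAAT box (CCAAT or ATTGG). The stretches lie at chr10:7543148-7543247 (plus strand, Nup43), chr11:115455155-115455254 (plus strand, Nup85), chr7:44465254-44465313 (plus strand, Nup62), chr13:107073467-107073566 (minus strand, Ipo11) and chr13:46881493-46881592 (minus strand, Nup153).
Nup43: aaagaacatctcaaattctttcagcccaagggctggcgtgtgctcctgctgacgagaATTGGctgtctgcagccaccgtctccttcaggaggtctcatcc
Nup85: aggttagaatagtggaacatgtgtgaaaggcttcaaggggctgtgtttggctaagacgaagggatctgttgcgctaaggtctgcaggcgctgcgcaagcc
Nup62: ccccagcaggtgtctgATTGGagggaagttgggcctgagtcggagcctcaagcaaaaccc
Ipo11: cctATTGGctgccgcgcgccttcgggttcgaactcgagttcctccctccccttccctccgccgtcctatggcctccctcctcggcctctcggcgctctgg
Nup153: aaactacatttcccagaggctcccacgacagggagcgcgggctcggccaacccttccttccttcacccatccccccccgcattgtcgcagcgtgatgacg

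The stretch of Nup62 is shorter because it stops before an exon of Atf5 on the other strand. A CCAAT box lies in the stretches of Nup43, Nup62 and Ipo11 and in neither of the others. In windows of 250 bases before to 50 after the start, searched on both strands, 60% of the 20 members that fell held a CCAAT box, as did 41.7% of the 12 that rose and 40.2% of the coding genes tested. The E-box letters CACGTG were in 15% of those that fell, 25% of those that rose and 10.5% of the coding genes tested. The E2F letters TTTNNCGC were in 2 of the 20 that fell, 0 of the 12 that rose and 8.62% of the coding genes tested, and the ETS letters CCGGAAG in 4, 2 and 16.8%. These are matches of letters in a window, and binding was not measured.

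The Y complex, which forms the outer rings, held the largest decreases. Of the 6 genes counted with it here, 5 fell and none rose by adjusted p, with a median log2 fold change of -0.44. Over all genes tested, 26.7% fell and 26.3% rose. Nup98, which rose by 0.17 (edgeR adjusted p = 0.0151), also encodes a subunit of this complex but was counted with the central channel. Of the Y complex subunits with other names, Ahctf1, which seeds pores on chromatin, rose by 0.22 (edgeR adjusted p = 0.00974) and Seh1l by 0.14 (edgeR adjusted p = 0.036), and Sec13 was at -0.10 (edgeR adjusted p = 0.15). Summed over the 6 genes counted here, the TPM of replicates 2 to 4 ranged from 454 to 535 for control and from 299 to 395 for 4A1 KO, so that the genotypes did not overlap. With replicate 1 the ranges were 383 to 535 and 275 to 395, and then they did overlap. 

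Nup43, a propeller-shaped subunit of the complex (chr10:7543248-7554650, plus strand), was at 52.7, 64.3 and 62.6 CPM in controls 2 to 4 and at 24.4, 26.8 and 38.3 CPM in 4A1 KO 2 to 4. In replicate 1 it was at 46.6 CPM in control and 22.8 CPM in 4A1 KO. Every 4A1 KO library was thus below every control library, and 4A1 KO 4 was the highest of the 4. The log2 fold change was -1.02 ± 0.099 (SE), with an adjusted p of 5.44e-05 by edgeR's test. Over all 8 libraries a two-sided exact permutation test of the CPM gave 0.0286, the smallest p that 4 against 4 allows.

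Nup85, a core subunit of the complex (chr11:115455255-115474821, plus strand), was at 186, 180.3 and 194 CPM in the controls and at 108, 112 and 131 CPM in 4A1 KO, with 156 and 98.2 CPM in replicate 1. Here too the genotypes did not overlap, and the log2 fold change was -0.68 ± 0.055 (edgeR adjusted p = 2.71e-05, n = 3). Nup107 was at 145, 136 and 149.2 CPM in the controls and between 97.7 and 115 CPM in 4A1 KO, again without overlap. Nup133 was at 142, 139 and 145 CPM against 96.6, 102.9 and 117 CPM. These 2 scaffold subunits fell by 0.45 and 0.43 on the log2 scale (edgeR adjusted p = 2.08e-04 and 2.99e-04), short of the fold that a call needs. Nup37 changed least among the subunits that fell, at -0.19 (edgeR adjusted p = 0.041), and it did not pass in 10 of 11 alternative settings. Nup160 was at 114, 136 and 146 CPM in the controls and 118, 136 and 140.0 CPM in 4A1 KO, with a log2 fold change of -0.005 (edgeR adjusted p = 0.94). Members of the same complex therefore spanned log2 fold changes from -1.02 for Nup43 to 0.22 for Ahctf1.

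**Figure D2:**
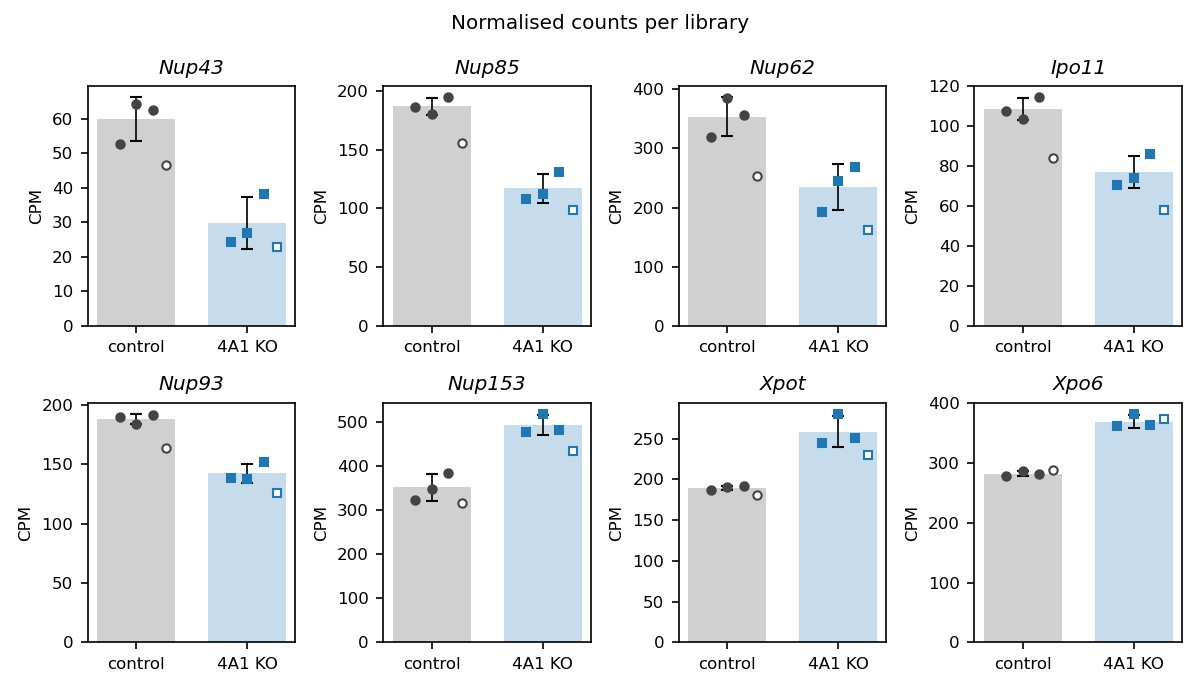
Normalised counts (CPM, y axis from 0) of 8 members in control and 4A1 KO libraries. Bars and error bars are the mean and SD of replicates 2 to 4 (filled points), and open points are replicate 1, which lies lowest in its genotype for most of these genes. Nup43, Nup85 and Nup93 separate the genotypes in all 8 libraries with 4A1 KO lower, and Nup153, Xpot and Xpo6 with 4A1 KO higher.

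Genes of proliferation also fell. Of 10 genes of S to M phase, 10 fell by adjusted p and 9 were called lower, beside 26.7% and 13.7% of all genes tested. The median log2 fold change of the 10 genes was -2.12. Their summed TPM in replicates 2 to 4 ranged from 1756 to 2128 for control libraries and from 891 to 1275 for 4A1 KO ones. The proliferation marker Mki67 was at 67.9, 46.8 and 86.0 TPM in controls 2 to 4 and at 10.1, 7.79 and 29.99 TPM in 4A1 KO 2 to 4. Among the 4A1 KO libraries, 4A1 KO 4 was highest in both Mki67 and Nup43, but 4A1 KO 2 and 3 were in opposite order. Among controls 2 to 4, control 3 was highest in Nup43 and lowest in Mki67. The part of proliferation in the fall of the Y complex was not tested.

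In the inner ring, which holds the pore to the membrane, 4 of 5 members fell and none rose by adjusted p. Of all genes tested, 26.7% fell and 26.3% rose. The median log2 fold change of the ring was -0.29. Nup93, which anchors the other subunits and has the highest TPM of the ring, was at 189, 184 and 191 CPM in the controls and at 138, 138 and 152 CPM in 4A1 KO, with 163 and 126 CPM in replicate 1. No 4A1 KO library reached a control library, and the log2 fold change was -0.40 ± 0.049 (edgeR adjusted p = 1.7e-04, n = 3). Nup35 was read least, at 15.1, 21.9 and 19.9 CPM in the controls and 11.5, 14.2 and 15.2 CPM in 4A1 KO. Its genotypes overlapped by a narrow margin, and it changed by -0.47 in counts (edgeR adjusted p = 0.00206) and by -0.55 in TPM (limma adjusted p = 0.00235), so that it was called in TPM but not in counts. It was also called in counts when replicate 2 or replicate 4 was left out, and without the replicate block its adjusted p in counts was 0.056. A processed pseudogene, Gm4353, matches Nup35 over 978 nt at 99.9% identity, and how reads were shared between them is not given in the sources used here. Nup35 also shares 131 nt of exon on the same strand with Dusp19 (-0.89, edgeR adjusted p = 0.0016), and reads there cannot be assigned to either gene alone. Nup155 and Nup205 fell by 0.29 and 0.19 on the log2 scale (edgeR adjusted p = 0.00115 and 0.00719), and Nup188, the counterpart of Nup205, was at 0.04 (edgeR adjusted p = 0.54).

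In the central channel the members differed in direction. Nup62, the repeat nucleoporin at the centre of the channel (chr7:44465354-44481258, plus strand), had the highest control TPM among the nucleoporins of the name rule, at 240.0, 306 and 297 TPM in the controls and 158, 236 and 245 TPM in 4A1 KO. In counts it was at 319, 385 and 356 CPM in the controls and 192, 244 and 268 CPM in 4A1 KO, with 254 and 162 CPM in replicate 1. Replicates 2 to 4 did not overlap in CPM, but 4A1 KO 4 was above control 1. The log2 fold change was -0.60 ± 0.064 in counts (edgeR adjusted p = 8.86e-05) and -0.42 ± 0.069 in TPM (limma adjusted p = 0.00434), and Nup62 was not called in TPM. Nup62 shares 554 nt of exon on the same strand with Il4i1, an enzyme gene induced by IL4, which fell by 0.42 on the log2 scale (edgeR adjusted p = 6.71e-04), and reads on the shared exon cannot be assigned to either gene alone. Nup54, a partner of Nup62, was at -0.13 (edgeR adjusted p = 0.054). Nup98, which also carries repeats and is found on both faces of the pore, rose by 0.17 (edgeR adjusted p = 0.0151), to 214, 232 and 238 CPM from 183, 214 and 214 CPM.

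Nup62cl, an X-linked relative of Nup62, was called higher on counts of 2, 5 and 10 reads in controls 2 to 4 and 10, 28 and 18 reads in 4A1 KO 2 to 4, with 1 and 13 reads in replicate 1. It passed the filter on low counts only through the 4A1 KO libraries, where it is higher. It was at 0.049, 0.12 and 0.23 CPM in controls 2 to 4 and 0.26, 0.69 and 0.42 CPM in 4A1 KO 2 to 4. With no filter it was also called. The log2 fold change was 1.74 ± 0.46 (edgeR adjusted p = 0.0111), and DESeq2 did not call it. All of its libraries were below 1 TPM, so it was not tested in TPM.

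On the cytoplasmic side, Nup214 and Nup88, which bind each other and serve export complexes as they leave the channel, both fell. Nup214 was at 222, 220.4 and 223 CPM in the controls and 164, 178 and 179 CPM in 4A1 KO, with 200.1 and 154 CPM in replicate 1. The genotypes did not overlap, and the log2 fold change was -0.35 ± 0.049 (edgeR adjusted p = 3.6e-04). Nup88 fell by 0.24 on the log2 scale (edgeR adjusted p = 0.00267), from 154, 168 and 171 CPM to 127, 142 and 149.5 CPM. Nup88 is the only member within 10 Mb of Eif4a1 on chromosome 11, at 1.271 Mb from it, and the part of linked sequence beside the targeted allele was not tested. The distance to Eif4a1 was not worked out for genes outside the name rule.

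In the nuclear basket the 2 members of the name rule moved apart, and Tpr, the filament protein of the basket, rose by 0.23 (edgeR adjusted p = 0.00166). Nup153, which docks the basket and binds importins and exportins (chr13:46830473-46881492, minus strand), was at 323, 347 and 384 CPM in the controls and 478, 518 and 481 CPM in 4A1 KO, with 316 and 434 CPM in replicate 1. Every 4A1 KO library lay above every control library, and the log2 fold change was 0.49 ± 0.057 (edgeR adjusted p = 1.47e-04, n = 3), just under the fold that a call needs. Nup50, which works with importin alpha at the basket, was at 192, 195 and 209.8 CPM in the controls and 169, 179 and 183 CPM in 4A1 KO, a change of -0.17 (edgeR adjusted p = 0.0126). Of the membrane class, Nup210, a transmembrane nucleoporin, rose by 0.19 (edgeR adjusted p = 0.00528), from 431, 413 and 426 CPM to 480.5, 479 and 487 CPM, and in replicate 1 it was at 392 CPM in control and 421 CPM in 4A1 KO, the latter below controls 2 and 4. Its relative Nup210l was at 0.31 to 0.54 TPM in the 8 libraries and did not pass (log2 fold change -0.21, edgeR adjusted p = 0.49).

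Importins were split between rises and falls. Of 13 tested, 6 fell, 5 rose and 2 did not pass by adjusted p, and of all genes tested 26.7% fell and 26.3% rose. The median log2 fold change of the importins was -0.01. Importin alpha proteins are adaptors that recognise the classical nuclear localisation signal and are carried by importin beta (Kpnb1). Kpna2 and Kpna3 fell by 0.38 each on the log2 scale (edgeR adjusted p = 0.00134 and 4.8e-04), while Kpna4 rose by 0.29 and Kpna1 by 0.38 (edgeR adjusted p = 0.00416 and 7.71e-04). Kpna6 was at -0.01 (edgeR adjusted p = 0.94).

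Kpna2 was at 97.8, 96.5 and 99.8 CPM in controls 2 to 4 and 66.7, 76.99 and 83.8 CPM in 4A1 KO, and at 66.9 and 64.3 CPM in replicate 1. Control 1 stood well below the other controls, so that the genotypes overlapped once it was added. Kpna2 has a near-identical copy, Kpna2rt (99.9% over 1968 nt), listed in the tables as Gm10184, which was at -0.34 (edgeR adjusted p = 0.0261), and a pseudogene, Gm10259 (99.8% over 1590 nt), was at 21.6 ± 1.06 TPM in controls and 15.7 ± 1.93 TPM in 4A1 KO (mean ± SD, n = 3) but at 0 to 9 counts in the 8 libraries. The level of Kpna2 is uncertain to the extent that reads were split among these and the other copies. Kpna1 was at 85.3, 94.9 and 102 CPM in the controls and 117, 130.0 and 120 CPM in 4A1 KO, without overlap in any of the 8 libraries.

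As shares of the summed importin alpha TPM, which are scaled by length, Kpna4 went from 28.4% ± 2.11 to 35.7% ± 1.70 and Kpna1 from 9.30% ± 0.47 to 12.8% ± 0.51 (mean ± SD, n = 3). Kpna2 went from 29.1% ± 3.15 to 23.6% ± 1.00 and Kpna3 from 26.0% ± 0.85 to 20.6% ± 0.83. Kpna6 stayed near 7.17% ± 0.65 and 7.35% ± 0.63. The summed TPM of the family overlapped between genotypes, at 349 to 437 in control and 351 to 408 in 4A1 KO replicates 2 to 4. The shares of one library sum to a fixed total and so cannot move independently, and no test was made of them.

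**Figure D3:**
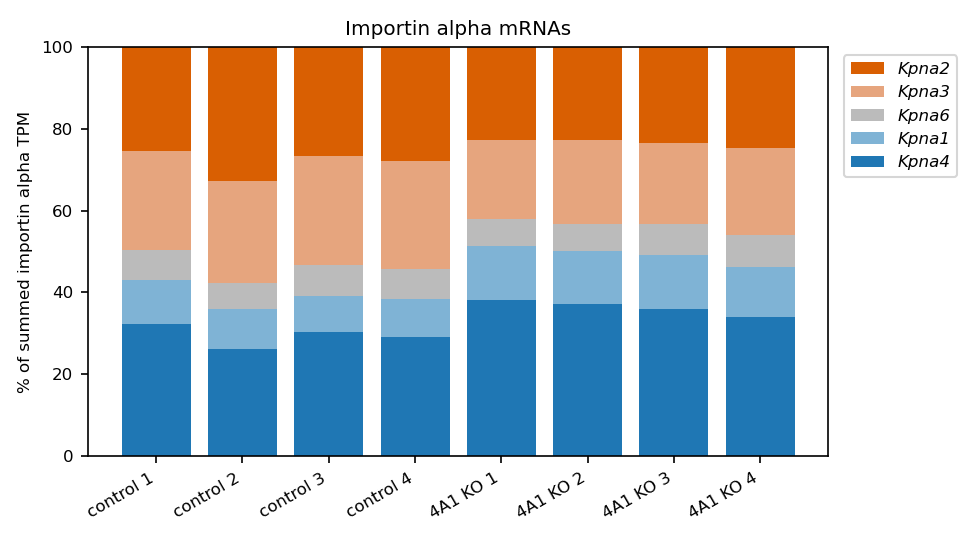
Share of the summed importin alpha TPM (y axis, percent) taken by each of 5 Kpna genes in the 8 libraries. Kpna4 and Kpna1 take a larger share in the 4A1 KO libraries (33.9% to 38.2% and 12.3% to 13.3%) than in the controls (26.1% to 32.1% and 8.84% to 10.8%), and Kpna3 a smaller one.

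The receptors of the importin beta family bind cargo directly or through adaptors. Of its 8 genes, 4 fell and 3 rose by adjusted p, beside 26.7% and 26.3% of all genes tested. Ipo11 (chr13:106930939-107073466, minus strand) was at 108, 104 and 114 CPM in the controls and 70.7, 74.2 and 86.0 CPM in 4A1 KO, with 84.2 and 58.1 CPM in replicate 1. Replicates 2 to 4 did not overlap, but control 1 was below 4A1 KO 4. The log2 fold change was -0.50 ± 0.056 (edgeR adjusted p = 1.16e-04), at the edge of the fold that a call needs, and it was -0.49 in TPM (limma adjusted p = 0.0019). Ipo11 shares 844 nt of exon on the same strand with Lrrc70 (-0.51, edgeR adjusted p = 0.00688), which is annotated as a transcribed pseudogene, so that reads on the shared exon cannot be told apart.

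Kpnb1, importin beta itself, was the most abundant member at 446 ± 32.6 TPM in controls and 489 ± 19.3 TPM in 4A1 KO (mean ± SD, n = 3). Its CPM were 1311, 1324 and 1418 in the controls and 1472, 1493 and 1521 in 4A1 KO, a log2 fold change of 0.15 (edgeR adjusted p = 0.0163). Ipo5, a receptor for ribosomal proteins among others, came next at 390.2 ± 20.4 and 346 ± 21.3 TPM and fell by 0.17 on the log2 scale (edgeR adjusted p = 0.0167). In replicates 2 to 4 the TPM of Kpnb1 and Ipo5 did not overlap in either genotype. In control 1, however, Kpnb1 was at 345 TPM, below the 371 to 412 TPM of Ipo5 in controls 2 to 4. Nup62 and Ipo7, which followed, were at 281 ± 35.9 and 188 ± 27.4 TPM in controls and overlapped in 4A1 KO 2 to 4. Ipo7, which carries ribosomal proteins and histones, fell by 0.31 (edgeR adjusted p = 6.74e-04) and Ipo9 by 0.15 (edgeR adjusted p = 0.0273). Ipo9 did not pass in TPM (-0.11, limma adjusted p = 0.11), nor in 4 of 11 alternative settings for counts. Ipo13, which both imports and exports cargo, rose by 0.25 (edgeR adjusted p = 0.00421), with 4A1 KO above control in every library in both CPM and TPM.

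Ipo4, a receptor for histones, gave a different result in the 2 measures. Its CPM were 260.1, 284 and 258 in the controls and 299.6, 329 and 311 in 4A1 KO, a log2 fold change of 0.23 (edgeR adjusted p = 0.00226), whereas its TPM were 126, 142 and 132 against 126, 135 and 134, a log2 fold change of -0.02 (limma adjusted p = 0.75). Gm49378 shares 2583 nt of exon with Ipo4 on the same strand. It was at 179.1, 196.0 and 179.5 CPM in controls 2 to 4 and 201.0, 219.3 and 211.3 CPM in 4A1 KO 2 to 4. Its log2 fold change in counts was 0.19 (edgeR adjusted p = 0.00767). In TPM it was at 2.71, 3.71 and 4.05 TPM in controls 2 to 4 and 35.1, 51.2 and 41.5 TPM in 4A1 KO 2 to 4, and at 3.15 TPM in 4A1 KO 1. In replicate 1 Ipo4 was at 136 TPM in control and 156 TPM in 4A1 KO, the highest of the 8 libraries. The rise of Ipo4 in counts was thus not seen in the TPM of replicates 2 to 4, whereas replicate 1 was higher in 4A1 KO in both measures. How TPM was shared between Ipo4 and Gm49378 was not tested.

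Of the 6 exportins of the name rule, 3 rose, 1 fell and 2 did not pass, beside 26.3% and 26.7% of all genes, with a median log2 fold change of 0.06. In TPM, 2 rose and 1 fell. Xpot, the exportin for tRNA (chr10:121423281-121464796, minus strand), was at 187, 191 and 192 CPM in the controls and 245, 280.5 and 251 CPM in 4A1 KO, with 181 and 231 CPM in replicate 1. Xpo6, which exports actin, was at 278, 286 and 281 CPM in the controls and 362, 382 and 363 CPM in 4A1 KO, with 288 and 373 CPM in replicate 1. For both, the 4 4A1 KO libraries lay above the 4 control libraries. The log2 fold changes were 0.44 ± 0.051 for Xpot (edgeR adjusted p = 1.37e-04) and 0.39 ± 0.043 for Xpo6 (edgeR adjusted p = 1.11e-04), both under the fold that a call needs. A pseudogene of Xpot, Gm7389, matches it at 96.1% over 2370 nt and was at 0.46 (edgeR adjusted p = 0.0253).

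Xpo5, which exports precursors of microRNAs, was the member of this class that fell, by 0.25 on the log2 scale (edgeR adjusted p = 0.00184), from 148, 177 and 182 CPM to 124, 145 and 157 CPM. Xpo1, which had the highest TPM of these 6 and is the receptor for the leucine-rich export signal, was at 413, 485 and 497 CPM in the controls and 484, 535 and 507 CPM in 4A1 KO. Its log2 fold change of 0.13 lay at the threshold (edgeR adjusted p = 0.0497), and in TPM it did not pass (limma adjusted p = 0.18). Xpo4 was at -0.06 (edgeR adjusted p = 0.29). Xpo7 was at -0.02 in counts (edgeR adjusted p = 0.76) and 0.32 in TPM (limma adjusted p = 0.079), where 4A1 KO 2 to 4 were at 34.8, 71.4 and 57.04 TPM and controls 2 to 4 at 33.6, 43.3 and 49.6 TPM. Of these, 4A1 KO 3 and 4 lay above every control and 4A1 KO 2 within their range.

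**Figure D4:**
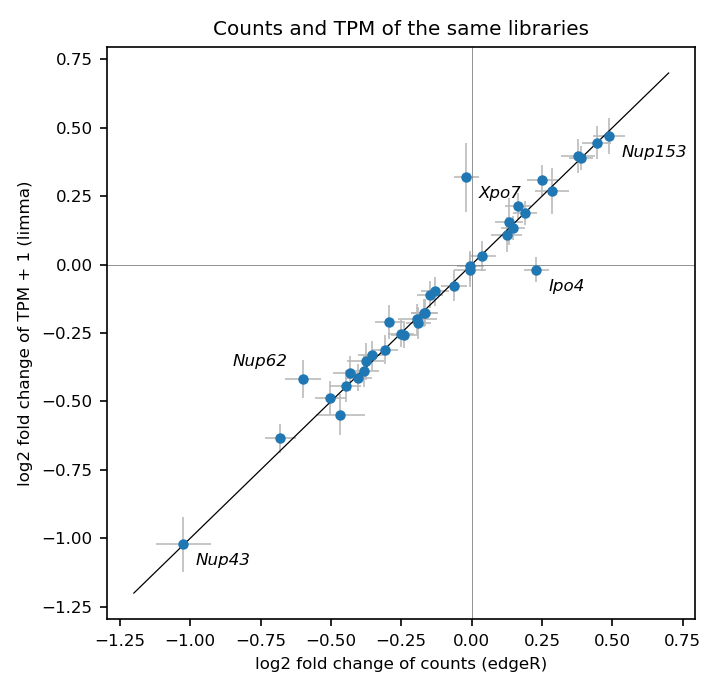
Log2 fold change of counts (x axis, edgeR) against that of TPM + 1 (y axis, limma) for the 38 members tested in both, with standard errors as bars and the line of equality. Most points lie on the line, and Ipo4, Xpo7 and Nup62 lie furthest from it.

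In TPM, 19 of 38 members fell and 9 rose by limma's adjusted p, beside 26.6% and 24.1% of all genes tested there. Of these, 3 were called lower (Nup43, Nup85 and Nup35) and none higher, beside 11.8% and 8.42%. Counting members whose genotypes did not overlap over all 8 libraries gave 7 lower and 7 higher of 40 in CPM, beside 19.6% and 17.2% of all genes, and 6 lower and 4 higher of 38 in TPM, beside 19.6% and 16.0%. The genotype effect of the members did not differ past the adjusted p between sexes or between batches in the 8 libraries (0 of 40 for each). Over all genes the same tests passed 0 of 14211 for sex and 1 of 14211 for batch, so that 0 members says nothing particular to them. Without adjustment, 0 members passed 0.05 for sex and 1 for batch (Kpna4) in edgeR.

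Other genes of the pore and of transport, which the name rule leaves out, also moved in both directions. Of 49 such genes, 19 fell and 13 rose by adjusted p, with 3 called lower and 5 higher. Over all genes tested, 26.7% fell and 26.3% rose by adjusted p, and 13.7% were called lower and 11.6% higher. Of the 10 pore genes, 3 fell and 5 rose, with a median log2 fold change of 0.04. Those that rose were Ahctf1, Seh1l, Tpr, Rae1 and Pom121, a transmembrane nucleoporin at 0.35 (edgeR adjusted p = 4.83e-04). Among those that fell, Ndc1, also transmembrane, changed by -0.56 on the log2 scale (edgeR adjusted p = 8.17e-05). Rae1, which binds Nup98 and mRNA, rose by 0.64 (edgeR adjusted p = 2.84e-05). Among transport receptors, Cse1l, the exportin that returns importin alpha to the cytoplasm, had the smallest adjusted p, with a log2 fold change of -0.43 (edgeR adjusted p = 1.09e-04), and Ranbp17 was called higher at 0.89 (edgeR adjusted p = 0.0338) on few reads, with 10, 22 and 21 counts in controls 2 to 4 and 27, 37 and 30 counts in 4A1 KO 2 to 4, and it was not tested in TPM. In the Ran cycle, 4 of 8 fell and 1 rose. Rangrf, a Ran-binding factor, was called higher at 0.78 (edgeR adjusted p = 5.13e-05), while Ran itself fell by 0.24 (edgeR adjusted p = 0.00198). Of 24 genes of mRNA export, 10 fell and 5 rose. Ncbp2, a subunit of the nuclear cap-binding complex, fell by 0.73 (edgeR adjusted p = 2.88e-05) and the export adaptor Alyref by 0.54 (edgeR adjusted p = 6.21e-05), while the RNA helicase Ddx19b and the export cofactor Nxt2 rose by 0.54 and 0.52 (edgeR adjusted p = 1.15e-04 and 0.00126).

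Both Nup58 and Nup42 are listed in the tables under the older symbols Nupl1 and Nupl2, so that the name rule passes over them, and they are named here after their values were seen. Nup58, a partner of Nup62 in the channel, was at 49.7, 62.2 and 59.9 CPM in controls 2 to 4 and 77.3, 86.1 and 86.3 CPM in 4A1 KO, a log2 fold change of 0.54 (edgeR adjusted p = 8.17e-05), yet at only 0.0 to 0.37 TPM in the 8 libraries. The 2 deposited measures thus disagree on its level, for which the reason was not tested. Nup42, of the cytoplasmic side, was at 0.15 in counts (edgeR adjusted p = 0.13), at 0.18 over all 8 libraries (edgeR adjusted p = 0.0463) and at 0.19 in TPM (limma adjusted p = 0.0493).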

How the data were processed

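RNA of 4 control and 4 4A1 KO libraries of splenic B cells was analysed from a table of raw read counts and a table of TPM, and genotype, sex, batch and replicate number came from the labels. The authors made the deposited counts with Seqmonk over merged isoforms, with strand, from reads mapped to GRCm39 with HISAT2 (2.1.0 per the submitters' processing notes), and the counts are not normalised. The deposited TPM, scaled by transcript length, came from StringTie (2.1.1), run by the authors. The treatment of multi-mapping reads is not given in the sources used here.

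Counts were fitted with edgeR 4.0.16 in R 4.3.3 (filterByExpr, TMM, quasi-likelihood test with batch, sex and genotype) on replicates 2 to 4. TPM were fitted with limma 3.58.1 as log2(TPM + 1) over genes averaging 1 TPM or more, so that folds of low genes are understated. All p-values are two-sided and Benjamini-Hochberg adjusted over all genes tested. Batch and sex together amount to a replicate block in these 6 libraries. The pairing rests on the labels, and deviations from the genotype means correlated at 0.59, 0.50 and 0.43 within same-numbered libraries and at -0.43 to 0.02 between the others. Of the identifiers, 52647 of 53242 matched GENCODE M39, with 41 of 41 members. Near copies were found with blastn 2.17.0 at an identity of at least 95% over at least 300 nt.

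Named genes are the called members, in each role the member of highest TPM and that of smallest adjusted p, in the other lists the called genes and that of smallest adjusted p, members that failed the filter, members whose direction differs between counts and TPM, and members within 10 Mb of Eif4a1. Other members, and pore genes with other names, were named to complete each role after their values were seen. The members and lists were chosen with earlier results of these data known. On simulated data with 200 of 14218 genes changed, edgeR recovered 181 with 4 false calls and limma 175 with 2. Alternatives were normalisation by upper quartile or by DESeq2's size factors, DESeq2 1.42.0 (shrunk or not), no filter, no replicate block, a pseudocount of 0.1 TPM, all 8 libraries, and leaving out each replicate. A ± beside a log2 fold change is a standard error from the fit, and a ± beside a mean is the SD between libraries. For edgeR the standard error was derived from the log2 fold change and the F statistic of the test, and for limma from the variance of the fit.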

Additional observations from a re-analysis of the deposited data

Results flagged for a closer look

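In 80 groups of 4 libraries (40 members in both genotypes, in CPM), the lowest or highest library was compared with the others by its gap to the nearest, divided by the range of the group, and chance alone would single out about 4 such groups. For Kpna2, control 1 was at 66.9 CPM while the other controls were at 96.5 to 99.8 CPM (ratio 0.902). For Nup214, control 1 was at 200.1 CPM and the others at 220.4 to 223 CPM (ratio 0.886). For Nup210, 4A1 KO 1 was at 421 CPM and the others at 479 to 487 CPM (ratio 0.881). In each case the library that stood apart was replicate 1, which was not part of the main comparison.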

How the results depend on the processing

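The members called lower numbered 3 to 5 under every alternative. The members called higher numbered 2 with upper quartile normalisation, where Nup153 was added, and 0 with DESeq2 with or without shrinkage, where Nup62cl was lost. Leaving out each replicate gave 0 to 2 members called higher, 4 to 5 called lower, and 0 to 1 called higher in TPM, with Nup62cl lost without replicate 3. The call of Ipo11 was lost with upper quartile normalisation, DESeq2's shrinkage, no replicate block and without replicate 2. Without the replicate block, 11 members fell by adjusted p where 20 did with it, and 8 rose where 12 did. Of the 49 other pore and transport genes, 3 were called higher with DESeq2's shrinkage, and 3 to 5 when a replicate was left out. Over all genes, 1089 were called higher with DESeq2's shrinkage. With all 8 libraries, 31 of the 32 members past the adjusted p remained past it, Nup37 being the exception. Of the 11 alternatives for counts, Nup37 did not pass in 10 and Xpo1 in 6.

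Signs turned only for members near 0. With upper quartile normalisation the log2 fold changes in counts were 0.017 for Kpna6, 0.018 for Nup160 and 0.0044 for Xpo7, and with all 8 libraries that of Ipo4 in TPM was 0.034. Leaving out each replicate gave -0.050 to 0.049 for Kpna6 and -0.028 to 0.022 for Nup160 in counts, and in TPM -0.037 to 0.0043 for Ipo4, -0.053 to 0.018 for Kpna6, -0.019 to 0.025 for Nup160 and -0.019 to 0.056 for Nup188. The causes were not tested. Members read at few counts, Nup62cl and Nup210l, are limited by depth.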
